A study of Mus musculus with 24 samples.

Results

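Oligomycin was added to oleic acid in mouse muscle cells that had been induced to make uncoupling protein 1 (UCP1), and the RNA of these cells was compared with that of cells given oleic acid and UCP1 without oligomycin. The comparison held 8 of the 24 libraries of the series, 4 of the group Dox_OOA (doxycycline, 300 µM oleic acid and 1 µM oligomycin) and 4 of the group Dox_OA (doxycycline and 300 µM oleic acid), chosen by their labels. The cells were C2C12, an immortalised line of mouse myoblasts, carrying a lentiviral vector that makes UCP1 when doxycycline is present. The cells of all 8 libraries therefore carried the vector and had received doxycycline, 24 h after seeding, and treatment began 24 h after that and lasted 16 h. The arm without induction, OOA and OA, held 4 libraries each of the same cells given water in place of doxycycline. It is used here to show where the response differed between the arms. No group had doxycycline without the vector, so in any comparison between the arms doxycycline and UCP1 cannot be told apart. The BSA level of the groups with oleic acid is not given, and nothing in the labels shows the 4 libraries of each group to be separate cultures. The p-values therefore reflect the spread among these libraries only, and that spread may be technical.

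In mitochondria the respiratory chain pumps protons across the inner membrane, and ATP synthase lets them back in while making ATP. Oligomycin blocks the proton channel of ATP synthase, which slows respiration and raises the membrane potential. UCP1, the uncoupling protein of brown fat, offers protons another way back and is activated by fatty acids such as oleic acid. Cells under mitochondrial stress start the integrated stress response, in which kinases phosphorylate the translation factor eIF2alpha and translation of the transcription factor ATF4 goes up. In cells with blocked mitochondria the signal can run from the protease OMA1 through DELE1 to the kinase HRI (gene Eif2ak1), which is 1 of several eIF2alpha kinases. ATF4 in turn drives genes of amino acid synthesis, transport and tRNA charging.

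The 8 libraries held 22027240 to 27250990 reads each. An FPKM (reads scaled to gene length and a library size) of at least 1 was reached by 12904 genes in 4 or more of all 24 libraries. Ucp1 (ENSMUSG00000031710, chromosome 8, 84016981 to 84025081, GRCm39) checked the induction, and read 339, 322, 319 and 309 FPKM in Dox_OA and 215, 224, 207 and 213 FPKM in Dox_OOA. Every Dox_OOA library was below every Dox_OA library, at 0.668 of their mean (exact permutation test, two-sided p = 0.0286, the smallest that 4 against 4 libraries can give), while the water groups averaged 6.84 (OA) and 4.42 FPKM (OOA). The cells with oligomycin thus carried less Ucp1 RNA, and the part of this in the results below was not tested. Of 16 myoblast genes 13 reached 1 FPKM, with summed levels of 404 to 443 FPKM in Dox_OA and 420 to 469 in Dox_OOA. All 4 adipocyte markers (Adipoq, Cidec, Lep and Plin1) were listed at 0 in all 8 libraries, and the endothelial markers summed to at most 0.135 FPKM. The 4 neuronal markers summed to 5.80 to 7.25 FPKM in Dox_OA and 3.92 to 4.36 in Dox_OOA, with Rbfox3 at 0. Most of this was Tubb3, at up to 6.53 FPKM in Dox_OA and 3.42 in Dox_OOA. On the first principal component of all 24 libraries, which held 41.6% of the variance, Dox_OA lay at -11.0 ± 0.22 (SD, n = 4), Dox_OOA at 12.6 ± 0.95 and OOA at 42.7 ± 1.63. On the second component, 10.1% of the variance, Dox_OOA lay at -19.1 ± 1.46 and no other group had a mean under -4.43.

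With UCP1 induced, oligomycin changed 4283 of the 12904 genes (33.2%) at an adjusted p under 0.05 in limma, a linear model fitted to log2(FPKM + 1) with Benjamini-Hochberg adjustment, which is the test behind every adjusted p and every call below. Of these, 2085 were higher (16.2% of genes tested) and 2198 lower (17.0%), and the median log2 change over all genes tested was 0.003. Most changes were small, since 76 genes (0.589%) changed by at least 2-fold. The libraries of Dox_OOA and Dox_OA did not overlap for 4092 genes (31.7%), and 3568 (27.7%) were called and did not overlap. Counts of list members that rose or fell with UCP1 induced are to be read against the shares of 16.2% and 17.0%. Each gene below is described by its level in FPKM and then by its log2 change, that is, the difference in mean log2(FPKM + 1) with its standard error (SE). Levels given with ± are means and SDs of 4 libraries. On this scale the change of a gene at a low level comes out too small.

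The genes that rose most were mainly those of the integrated stress response and a few known from other tissues. Among the factors of the response, 8 of 10 rose, none fell and 2 did not pass, with a median log2 change of 0.87. Trib3, a pseudokinase gene induced by ATF4 and CHOP, had the largest rise of all named genes on the log2(FPKM + 1) scale. It read 1.46, 1.96, 2.42 and 1.60 FPKM in Dox_OA and 41.1, 40.6, 42.6 and 38.97 FPKM in Dox_OOA. The groups lay far apart, a 21.9-fold difference in mean FPKM and a log2 change of 3.88 ± 0.10 (adjusted p = 1.58e-17). By the ratio of mean FPKM, Car6, which was near 0 in Dox_OA, rose more (61.0-fold). Ddit3, which encodes the stress factor CHOP, read 8.93, 10.3, 9.56 and 7.75 FPKM in Dox_OA and 33.2, 29.3, 27.4 and 32.1 FPKM in Dox_OOA. The lowest library with oligomycin stood well above the highest without (log2 change 1.64 ± 0.07, adjusted p = 5.92e-14).

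Atf4 itself moved less than Trib3 and Ddit3. Its levels were 84.2, 90.1, 93.3 and 84.2 FPKM in Dox_OA and 166, 160.1, 147 and 160.3 FPKM in Dox_OOA, with no overlap (log2 change 0.84 ± 0.06, adjusted p = 2.4e-10). Atf5, a related factor that cells also control at translation, rose from a mean of 38.4 ± 1.64 to 72.1 ± 1.72 FPKM (log2 change 0.89 ± 0.05). Atf3, a factor that appears early in many stresses, rose from 0.491 ± 0.36 to 6.28 ± 0.64 FPKM (log2 change 2.31 ± 0.13), and its Dox_OA value rests on one library at 1.02 FPKM and 3 between 0.247 and 0.350. The members Jdp2 and Cebpb did not pass.

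**Figure D1:**
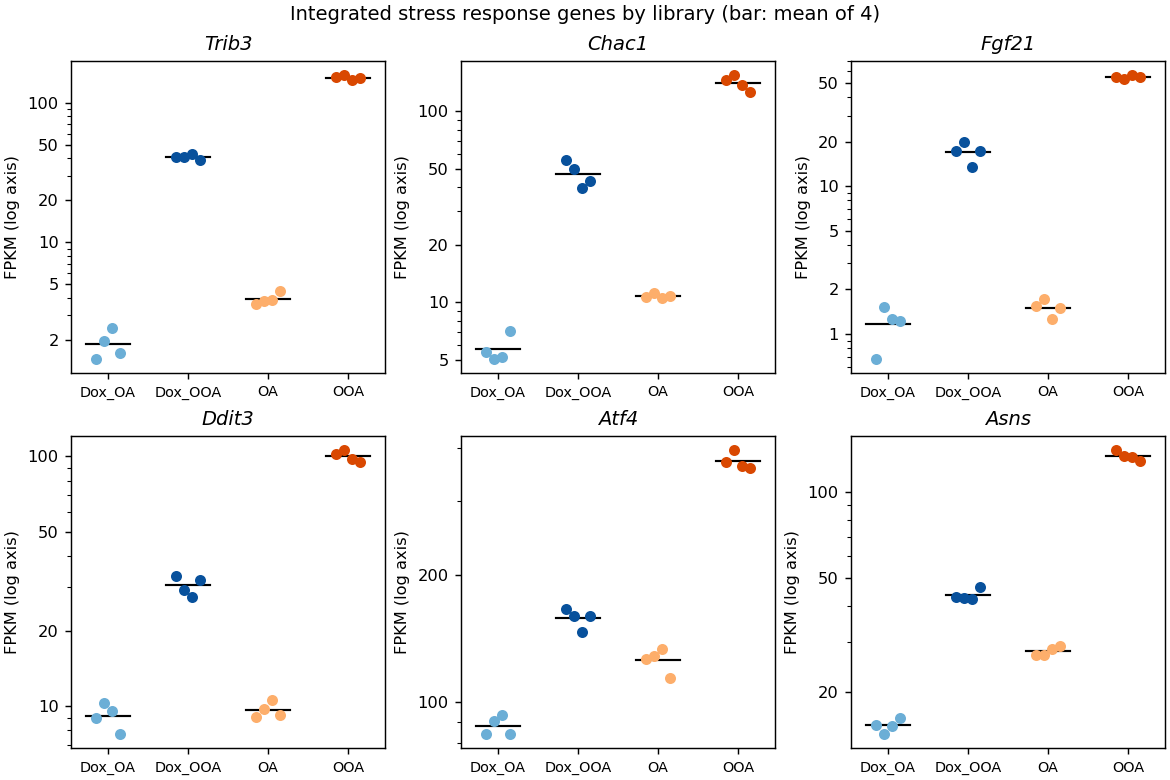
FPKM of 6 stress response genes (one panel each, log axis) in each of the 4 libraries of Dox_OA, Dox_OOA, OA and OOA, with a bar at the mean. In every panel the Dox_OOA libraries lie above the Dox_OA libraries and below the OOA libraries, as for Trib3 at means of 1.86, 40.8 and 151 FPKM.

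Genes of the relay from mitochondria to eIF2alpha were listed with the other eIF2alpha kinases, eIF2alpha itself, its phosphatase subunits, Opa1 and Hspd1. Of the 11 tested, 3 rose, 4 fell and 4 did not pass, while 16.2% of all genes rose and 17.0% fell. Those that rose were Eif2ak4, Ppp1r15a and Ppp1r15b, and none of Oma1, Dele1 and Eif2ak1 did. Oma1, the protease gene, stood at 7.74 ± 0.64 FPKM in Dox_OA and 7.74 ± 0.77 in Dox_OOA (adjusted p = 0.99), and Dele1 at 7.34 ± 0.35 and 6.61 ± 0.39 (log2 change -0.13 ± 0.05, adjusted p = 0.0514, with a range of 0.0401 to 0.166 over 17 alternative settings). Eif2ak1, the HRI gene, fell slightly, from 9.83, 9.73, 10.01 and 10.1 to 8.74, 8.22, 8.76 and 8.55 FPKM, without overlap (log2 change -0.19 ± 0.05, adjusted p = 0.00251). Eif2ak4, which encodes the amino acid sensing kinase GCN2, rose from 11.1 ± 0.55 to 15.9 ± 1.69 FPKM (log2 change 0.48 ± 0.06). Ppp1r15a, which encodes GADD34, the phosphatase subunit that ends the response, rose the most of this list (from 4.50 ± 0.39 to 12.3 ± 0.83 FPKM, log2 change 1.27 ± 0.10).

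Of 32 ATF4 targets tested, 31 rose and none fell, with a median log2 change of 1.08 against 0.003 for all genes, and Slc38a2 (-0.01) did not pass. Libraries of the groups did not overlap for 31 of the 32. The gene lists share members, so their counts are not separate results. Of the targets, Trib3, Atf3, Atf5, Ddit3 and Nupr1 are also in the list of stress response factors. Phgdh, Psat1, Psph, Shmt2, Mthfd2 and Aldh1l2 are also in the serine and one-carbon list. Slc7a1, Slc7a5, Slc7a11, Slc3a2, Slc1a4 and Slc6a9 are also among the carriers, and Fgf21, Gdf15 and Stc2 among the secreted factors. Chac1, whose enzyme breaks down glutathione, read 5.45, 5.06, 5.18 and 7.02 FPKM in Dox_OA and 55.6, 49.7, 39.8 and 43.3 FPKM in Dox_OOA. Replicates 1 and 2 were the highest of Dox_OOA, and the groups stayed apart (log2 change 2.85 ± 0.10, adjusted p = 1.49e-15). Asns, the asparagine synthetase gene and a standard reporter of ATF4, read 15.3, 14.3, 15.2 and 16.2 FPKM in Dox_OA and 42.9, 42.8, 42.3 and 46.5 FPKM in Dox_OOA (log2 change 1.46 ± 0.05, adjusted p = 2.9e-16). Gpt2, a mitochondrial alanine transaminase gene, rose from 13.5 ± 1.09 to 56.3 ± 1.1 FPKM (log2 change 1.99 ± 0.05). Sesn2, whose protein senses leucine and restrains mTORC1, rose from 4.60 ± 0.32 to 17.1 ± 0.32 FPKM (log2 change 1.69 ± 0.07).

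The promoters of 4 of these genes are shown because each holds the letters TGATGNAA, the core of the element that ATF4 binds together with C/EBP factors, read on either strand and printed in capitals. The sequences are from RefSeq on build GRCm38.p6, run 5′ to 3′ along the gene's strand, and cover 250 bases before to 50 bases after the gene's start. They stand at chr2:152344011-152344310 (minus strand) for Trib3, chr2:119350992-119351291 (plus) for Chac1, chr6:7693160-7693459 (minus) for Asns and chr7:45615441-45615740 (minus) for Fgf21. The match begins 15 bases into the Trib3 transcript, and 193, 23 and 139 bases before the start of Chac1, Asns and Fgf21.
Trib3: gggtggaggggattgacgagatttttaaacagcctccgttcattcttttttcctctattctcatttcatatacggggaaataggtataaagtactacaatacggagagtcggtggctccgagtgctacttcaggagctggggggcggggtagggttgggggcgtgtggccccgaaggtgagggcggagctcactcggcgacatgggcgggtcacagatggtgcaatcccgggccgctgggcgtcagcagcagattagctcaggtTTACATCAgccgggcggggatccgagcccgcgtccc
Chac1: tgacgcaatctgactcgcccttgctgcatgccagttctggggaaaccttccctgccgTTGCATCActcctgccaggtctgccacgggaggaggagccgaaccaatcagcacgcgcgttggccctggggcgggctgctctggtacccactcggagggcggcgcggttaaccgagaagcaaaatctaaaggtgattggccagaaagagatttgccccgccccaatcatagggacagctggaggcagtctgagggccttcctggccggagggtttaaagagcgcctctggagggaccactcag
Asns: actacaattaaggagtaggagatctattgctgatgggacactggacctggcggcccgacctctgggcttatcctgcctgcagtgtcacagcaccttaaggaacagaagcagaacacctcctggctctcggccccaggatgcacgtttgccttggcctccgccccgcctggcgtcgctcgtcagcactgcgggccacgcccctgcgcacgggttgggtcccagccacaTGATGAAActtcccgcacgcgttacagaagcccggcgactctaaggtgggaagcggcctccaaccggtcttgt
Fgf21: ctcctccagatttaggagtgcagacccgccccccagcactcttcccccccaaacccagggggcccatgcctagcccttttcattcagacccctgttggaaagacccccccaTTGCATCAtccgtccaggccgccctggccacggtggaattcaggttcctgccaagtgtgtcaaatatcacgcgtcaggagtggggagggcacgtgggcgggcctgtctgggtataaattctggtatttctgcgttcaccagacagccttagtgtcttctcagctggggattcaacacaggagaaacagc
Among genes tested with such a promoter on chromosomes other than 18, 2.56% of 8956 held TGATGNAA, against 11 of 28 ATF4 targets (39.3%), 4 of 9 stress response factors and 5 of 13 cytosolic tRNA synthetase genes. A match describes the letters only. These genes rose by different amounts: Asns, with the match 23 bases before the start, had a log2 change of 1.46, and Trib3, with a match inside the transcript, one of 3.88.

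Serine and one-carbon genes were split. Of the 17 tested, 7 rose and 7 fell. The 3 steps from glycolysis to serine all rose: Phgdh from 38.3 ± 1.91 to 58.9 ± 1.18 FPKM (log2 change 0.61 ± 0.05), Psat1 from 24.4 ± 1.12 to 34.6 ± 1.84 (log2 change 0.48 ± 0.04), and Psph by a log2 change of 0.97. Genes of 3 mitochondrial folate enzymes rose too. Mthfd2 read 10.9, 11.2, 11.5 and 9.72 FPKM in Dox_OA and 27.9, 27.8, 29.6 and 30.5 in Dox_OOA, without overlap (log2 change 1.34 ± 0.06, adjusted p = 2.13e-13), and Shmt2 rose by a log2 change of 0.62 ± 0.03. Aldh1l2, the mitochondrial formyltetrahydrofolate dehydrogenase gene, rose from 3.80 ± 0.33 to 19.5 ± 0.64 FPKM (log2 change 2.10 ± 0.05, adjusted p = 2.06e-18). The members that fell included the cytosolic Shmt1, from 6.43 ± 0.33 to 4.24 ± 0.45 FPKM (log2 change -0.51 ± 0.06), and Tyms, Gart, Mthfd1, Gcsh and Mthfd1l, at -0.54 to -0.18. These members were named after their values were seen.

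Most amino acid carriers and cytosolic tRNA synthetase genes rose. Of 13 carriers, 9 rose and none fell (1 fell without Dox_OA replicate 2). Slc7a5, the light chain of the LAT1 carrier of large neutral amino acids, read 29.004, 29.8, 28.5 and 30.9 FPKM in Dox_OA and 80.5, 84.2, 85.8 and 85.6 in Dox_OOA. The 4 libraries with oligomycin lay close together and far above the 4 without (log2 change 1.48 ± 0.04, adjusted p = 2.97e-17). The glycine carrier gene Slc6a9 rose from 1.94 ± 0.38 to 8.19 ± 0.86 FPKM (log2 change 1.65 ± 0.10). Of 20 cytosolic tRNA synthetase genes, 13 rose and 4 fell (Hars, Farsa, Rars and Vars), with a median log2 change of 0.37. Sars, for serine, rose by 0.81 ± 0.05 and Gars, for glycine, from 50.96 ± 3.4 to 87.9 ± 1.36 FPKM (0.78 ± 0.04). Of 17 mitochondrial tRNA synthetase genes 1 rose and 3 fell, a share of falls close to the 17.0% of all genes. The rise was lost without Dox_OA replicate 3 or 4 or Dox_OOA replicate 1, 2 or 4 (0 higher in each).

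Of 14 genes of secreted factors tested, 8 rose and none fell. Fgf21, a metabolic hormone that muscle makes under mitochondrial stress, read 0.679, 1.51, 1.26 and 1.22 FPKM in Dox_OA and 17.2, 19.9, 13.5 and 17.4 in Dox_OOA. The groups did not overlap (log2 change 3.06 ± 0.13, adjusted p = 1.26e-13). Gdf15, which acts on the hindbrain to lower food intake, read 0.697, 0.561, 0.814 and 0.0448 FPKM in Dox_OA and 8.21, 6.98, 6.07 and 6.32 in Dox_OOA (log2 change 2.39 ± 0.16, adjusted p = 1.22e-10). Inhba, which encodes the activin A subunit, rose from 11.7 ± 0.59 to 19.3 ± 0.83 FPKM (log2 change 0.67 ± 0.05), and Vegfa, the vascular growth factor gene, from 38.9 ± 3.46 to 55.8 ± 0.72 (log2 change 0.51 ± 0.07). Angptl4, a lipoprotein lipase inhibitor and PPAR target, stood at 188 ± 5.91 FPKM in Dox_OA and 196 ± 11.1 in Dox_OOA (adjusted p = 0.627).

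Several of the largest rises were in genes known from other tissues (Cdsn, Car6 and Avil), and others were in Cox6a2 and Acot2. Cdsn, which encodes corneodesmosin of the skin's outer layer, read 3.22, 2.90, 2.73 and 2.17 FPKM in Dox_OA and 18.7, 20.1, 20.6 and 21.7 in Dox_OOA (log2 change 2.51 ± 0.09, adjusted p = 1.49e-15). Car6, a secreted carbonic anhydrase gene, was at no more than 0.198 FPKM in Dox_OA, with one library at 0, and read 5.59, 5.87, 4.64 and 4.73 FPKM in Dox_OOA (log2 change 2.51 ± 0.09). Avil, which encodes the actin-severing protein advillin, rose from 0.255 ± 0.089 to 3.83 ± 0.62 FPKM (log2 change 1.94 ± 0.10). Cox6a2, the muscle form of a cytochrome c oxidase subunit, rose from 0.601 ± 0.41 to 7.16 ± 2.25 FPKM (log2 change 2.34 ± 0.21). Of the 25 genes of complexes II to IV, 6 fell, against 17.0% of all genes, and Cox6a2 was the only one that rose. Acot2, a mitochondrial acyl-CoA thioesterase gene, rose from 3.86 ± 0.93 to 16.6 ± 0.94 FPKM (log2 change 1.87 ± 0.16). The epithelial markers summed to 1.66 to 2.68 FPKM in Dox_OA and 0.686 to 2.05 in Dox_OOA, with Epcam listed at 0. Nearly all of this was Krt14, at up to 2.68 FPKM in Dox_OA and 2.03 in Dox_OOA. Krt14 fell (log2 change -0.49) while Cdsn rose, and the part of these markers in the change of Cdsn was not tested.

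Cell cycle genes fell throughout. All 25 genes of G2 and mitosis fell, with a median log2 change of -0.77, and libraries of the groups did not overlap for any of them. All 29 genes of S phase fell as well (median -0.61), and 28 did not overlap. Both counts stand against 17.0% of all genes that fell. Cdc20, an activator of the anaphase-promoting complex, read 85.4, 85.95, 94.4 and 81.7 FPKM in Dox_OA and 40.6, 35.6, 40.8 and 48.3 in Dox_OOA. Its lowest Dox_OA library was well above its highest Dox_OOA library (log2 change -1.06 ± 0.06, adjusted p = 1.91e-11). Mki67, the proliferation antigen gene, read 43.5, 48.9, 44.6 and 46.8 FPKM and then 21.1, 21.5, 25.1 and 23.3 FPKM in the same order of groups (log2 change -0.99 ± 0.08, adjusted p = 8.36e-10). The mitotic kinase gene Plk1 fell from 43.3 ± 2.21 to 22.03 ± 1.85 FPKM, and the cyclin genes Ccna2 and Ccnb1 from 55.7 ± 2.5 to 30.5 ± 1.79 and from 32.5 ± 2.53 to 18.8 ± 0.72 FPKM. In bulk RNA, fewer cells in a phase and less RNA per cell cannot be told apart.

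Among S phase genes, Rrm2, a ribonucleotide reductase subunit gene, read 126, 117, 122 and 121 FPKM in Dox_OA and 79.5, 74.7, 69.8 and 72.2 in Dox_OOA, without overlap (log2 change -0.71 ± 0.05, adjusted p = 8.36e-10). The helicase gene Mcm3 fell from 40.8 ± 0.69 to 21.5 ± 1.72 FPKM (log2 change -0.90 ± 0.05). Genes that control entry into the cycle were divided, 4 higher and 6 lower of 16. Ccnd1, the cyclin D1 gene, had one of the largest falls, from 42.8, 44.03, 45.2 and 46.6 to 22.2, 20.5, 20.5 and 20.1 FPKM (log2 change -1.07 ± 0.04, adjusted p = 8.49e-15). Mxd3, which encodes a MAX partner of proliferating cells, fell from 11.5 ± 1.26 to 6.33 ± 0.42 FPKM, while Myc stood at 34.7, 36.9, 29.4 and 29.4 FPKM in Dox_OA and 40.3, 36.5, 36.3 and 38.9 in Dox_OOA. The Myc libraries overlapped and its rise was small (log2 change 0.22 ± 0.06, adjusted p = 0.00953, 0.0012 to 0.0521 over 17 alternative settings, not past the threshold with only the 8 libraries compared).

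The promoters of Plk1 and Cdc20 are shown because both hold CCAAT, the box bound by NF-Y, and TTTGAA, a form of the cell cycle homology region bound by the DREAM and MuvB complexes. They stand at chr7:122159185-122159484 (plus strand) and chr4:118437294-118437593 (minus), with matches on either strand in capitals and source, build and span as above.
Plk1: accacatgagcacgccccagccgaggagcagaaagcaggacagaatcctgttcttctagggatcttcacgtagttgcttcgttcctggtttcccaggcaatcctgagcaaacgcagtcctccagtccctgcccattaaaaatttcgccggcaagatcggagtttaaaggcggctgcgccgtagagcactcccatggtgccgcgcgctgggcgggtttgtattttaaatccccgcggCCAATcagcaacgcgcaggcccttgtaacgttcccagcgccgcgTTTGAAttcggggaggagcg
Cdc20: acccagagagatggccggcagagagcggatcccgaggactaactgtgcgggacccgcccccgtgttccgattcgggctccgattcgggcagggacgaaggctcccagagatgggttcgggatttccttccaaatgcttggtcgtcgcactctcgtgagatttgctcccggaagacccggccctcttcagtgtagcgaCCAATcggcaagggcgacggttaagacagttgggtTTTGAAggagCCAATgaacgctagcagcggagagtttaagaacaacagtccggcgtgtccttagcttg
In Plk1, CCAAT begins 14 bases before the start and TTTGAA 31 bases into the transcript. In Cdc20, CCAAT begins 53 and 8 bases before the start and TTTGAA 18 bases before it. TTTGAA was found in 14 of 20 G2 and mitosis genes with a promoter (70%), in 1 of 23 S phase genes and in 14.0% of all genes tested. CCAAT was found in 17 of the 20 (85%), in 14 of the 23 (60.9%) and in 43.6% of all genes tested.

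Of 21 p53 targets, 10 rose, none fell and 11 did not pass. Eda2r, a death receptor gene of the TNF family, rose from 2.49 ± 0.22 to 7.26 ± 0.48 FPKM (log2 change 1.24 ± 0.08) and the growth arrest gene Gadd45a from 11.1 ± 0.96 to 25.9 ± 1.95 (log2 change 1.16 ± 0.10). Cdkn1a, which encodes the cell cycle inhibitor p21, read 20.7, 20.1, 19.5 and 19.1 FPKM in Dox_OA and 26.1, 26.6, 22.9 and 25.9 in Dox_OOA. Every library with oligomycin was higher, by a small step (log2 change 0.34 ± 0.06, adjusted p = 0.00014). Mdm2 (0.12) and Bax (0.14) did not pass.

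**Figure D2:**
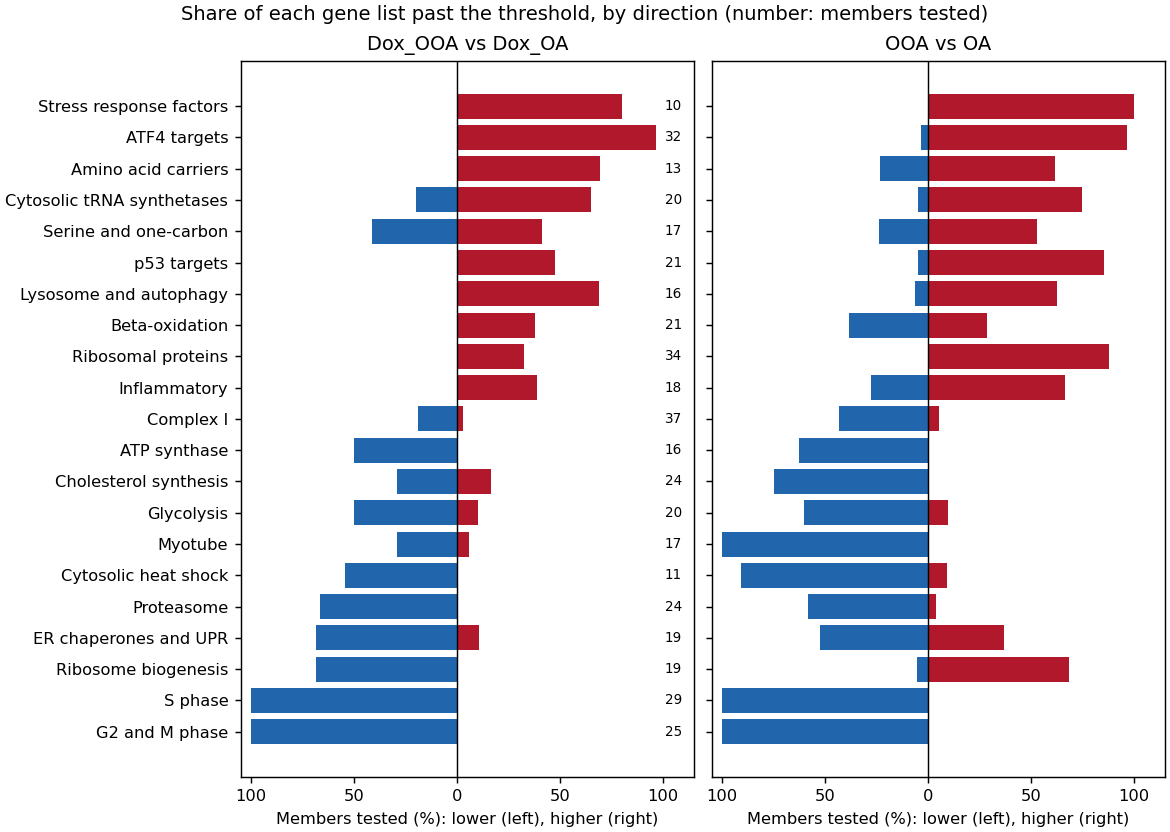
Share of the tested members of each gene list (bars, percent; lower to the left, higher to the right) that passed the threshold in Dox_OOA vs Dox_OA (left panel, with the number of members tested) and in OOA vs OA (right panel). All G2 and M phase and S phase members are lower in both panels, while ribosome biogenesis is lower in the left panel (13 of 19) and mostly higher in the right (13 of 19).

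Most genes of ribosome biogenesis fell. Of 19 tested, 13 fell, none rose (1 without Dox_OA replicate 4) and 6 did not pass, with a median log2 change of -0.18. Nop56, a core protein of the box C/D particles that methylate ribosomal RNA, read 34.9, 33.6, 40.8 and 36.98 FPKM in Dox_OA and 23.9, 23.7, 25.5 and 27.7 in Dox_OOA. The groups did not overlap (log2 change -0.52 ± 0.07, adjusted p = 4.3e-06). Nolc1, a nucleolar chaperone gene, fell from 26.9 ± 2.5 to 18.5 ± 0.87 FPKM (log2 change -0.52 ± 0.07). Dkc1, the pseudouridine synthase gene, fell from 16.005 ± 1.62 to 12.04 ± 1.17 FPKM (log2 change -0.38 ± 0.06) and the methyltransferase gene Nop2 from 24.1 ± 2.39 to 18.3 ± 0.83 (log2 change -0.38 ± 0.06). Ncl, which encodes the abundant nucleolar protein nucleolin and was named after its values were seen, fell less (log2 change -0.18 ± 0.05). Of 34 ribosomal protein genes 11 rose, none fell and 23 did not pass, with a median of 0.08.

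Many chaperone genes of the endoplasmic reticulum and the cytosol fell. Of 19 genes of the endoplasmic reticulum stress response, 13 fell and 2 rose (median -0.29). Hspa5, which encodes the main chaperone BiP, read 204, 206, 188 and 197 FPKM in Dox_OA and 169.7, 167, 159 and 155 in Dox_OOA. Every library with oligomycin was lower (log2 change -0.29 ± 0.04, adjusted p = 2.41e-06), and the chaperone gene Hyou1 fell by a similar step (-0.32 ± 0.04). The 2 that rose were Edem1 (0.19) and Herpud1, a gene of protein degradation at the reticulum that CHOP and ATF4 also induce, from 46.4 ± 2.42 to 84.2 ± 3.41 FPKM (log2 change 0.85 ± 0.06). Of 11 cytosolic heat shock genes, 6 fell and none rose. Hsp90aa1, the inducible HSP90 gene, fell from 241 ± 7.41 to 163 ± 8.86 FPKM (log2 change -0.57 ± 0.05) and Hsph1 from 14.8 ± 1.13 to 9.79 ± 0.70 (-0.55 ± 0.08). Of 24 proteasome genes 16 fell and none rose (median -0.19), with Psmd12 of the regulatory lid at -0.39 ± 0.04.

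Of 37 complex I genes 7 fell and 1 rose, and 29 did not pass, a share of falls close to that of all genes, with 3 lower without Dox_OA replicate 3 and 2 higher without Dox_OOA replicate 3. Of 16 ATP synthase genes, whose complex oligomycin blocks, 8 fell and none rose, against 17.0% and 16.2% of all genes. Atp5g3, which encodes a form of the c subunit in the proton channel, read 84.9, 84.7, 84.02 and 73.2 FPKM in Dox_OA and 71.5, 66.2, 62.1 and 71.3 in Dox_OOA. Dox_OA replicate 4 lay near the Dox_OOA libraries (log2 change -0.27 ± 0.07, adjusted p = 0.00644). Without Dox_OOA replicate 3, 5 ATP synthase genes fell. Cycs, the cytochrome c gene, fell from 19.4 ± 2.08 to 13.2 ± 1.12 FPKM (log2 change -0.52 ± 0.07).

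Of 12 mitochondrially encoded mRNAs, 2 rose and 10 did not pass, a share close to the 16.2% of all genes that rose. The mt-Co1 gene, for a subunit of cytochrome c oxidase, read 3724, 3804, 3710.0 and 3744 FPKM in Dox_OA and 5395, 5279.7, 5384 and 4689 in Dox_OOA. Dox_OOA replicate 4 was the lowest of its group and still above all of Dox_OA (log2 change 0.47 ± 0.10, adjusted p = 0.000824). The mt-Co2 gene rose from 74.4 ± 13 to 105 ± 6.66 FPKM (log2 change 0.51 ± 0.15). Nuclear copies of mitochondrial genes can share their reads, so levels of both are uncertain. Among mitochondrial chaperones and proteases, 4 of 16 rose and 2 fell, against 16.2% and 17.0% of all genes. Lonp1, the matrix protease gene, rose from 32.3 ± 1.75 to 51.1 ± 1.97 FPKM (log2 change 0.65 ± 0.04) and Hspa9, the matrix HSP70 gene, from 123 ± 4.15 to 179.6 ± 2.02 (0.54 ± 0.04), whereas the import pore gene Tomm40 fell by 0.55 on the log2 scale and the chaperonin gene Hspd1 by 0.24.

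Of 20 glycolytic genes tested, 10 fell, 8 did not pass and 2 rose (Ldhb and Slc16a1), or 1 without Dox_OA replicate 3 or 4 or Dox_OOA replicate 1 or 2. Ldha, the lactate dehydrogenase subunit gene of muscle, read 401, 411, 388 and 388 FPKM in Dox_OA and 252, 249, 221 and 237 in Dox_OOA, without overlap (log2 change -0.73 ± 0.05, adjusted p = 6.62e-10). Pgk1, the phosphoglycerate kinase gene, fell from 518 ± 11.4 to 354 ± 24.9 FPKM (log2 change -0.55 ± 0.06). Of 20 targets of hypoxia-inducible factors, 9 fell and 5 rose, against 17.0% and 16.2% of all genes. The carbonic anhydrase gene Car9, which responds to hypoxia, fell from 15.2 ± 1.36 to 8.62 ± 0.23 FPKM (log2 change -0.75 ± 0.07) and the pyruvate dehydrogenase kinase gene Pdk1 from 23.7 ± 0.85 to 16.8 ± 1.34 (-0.47 ± 0.06). The 5 that rose were Vegfa, Ddit4 and Ero1a, which the stress response is also known to induce, with Ndrg1 and Hif1a. Ero1a, an oxidase gene of protein folding, rose from 14.5 ± 1.41 to 29.5 ± 1.16 FPKM (log2 change 0.98 ± 0.06).

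Some genes of fatty acid use rose slightly. Of 21 beta-oxidation genes 8 rose, none fell and 13 did not pass (median 0.06), and of 17 PPAR targets 7 rose and none fell. In 8 of 17 alternative settings 1 gene fell in each list, among them those without Dox_OA replicate 3, Dox_OOA replicate 1 or Dox_OOA replicate 4. Cpt1a, which admits long-chain fatty acids to mitochondria, read 54.96, 56.02, 52.6 and 55.1 FPKM in Dox_OA and 62.4, 61.3, 60.996 and 60.4 in Dox_OOA. The groups did not overlap, though the step was small (log2 change 0.16 ± 0.03, adjusted p = 0.000694). Acadm, the medium-chain acyl-CoA dehydrogenase gene, stood at means of 53.1 ± 2.35 and 59.1 ± 1.56 FPKM (log2 change 0.15 ± 0.04, adjusted p = 0.00745). Pdk4, which diverts pyruvate from oxidation, rose by 0.34 ± 0.07. The lipid droplet gene Plin2 rose from 70.2 ± 4.22 to 101 ± 2.61 FPKM (log2 change 0.53 ± 0.04).

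Of 24 genes of cholesterol synthesis and its control, 4 rose, a share close to the 16.2% of all genes, 7 fell and 13 did not pass. Fdft1, which encodes squalene synthase, rose from 5.51 ± 0.49 to 7.42 ± 0.59 FPKM (log2 change 0.37 ± 0.08), and Hmgcs1, of an early step, rose by 0.23 ± 0.05. Acat2, which encodes a cytosolic acetyl-CoA acetyltransferase and was named after its values were seen, fell from 13.4 ± 0.82 to 9.62 ± 1.58 FPKM (log2 change -0.45 ± 0.10). The fatty acid desaturase gene Scd2 fell by 0.14 on the log2 scale. Lysosome and autophagy genes rose, 11 of 16 with none lower. Sqstm1, the cargo receptor p62 gene, read 91.8, 92.05, 93.8 and 91.6 FPKM in Dox_OA and 160.2, 154, 159 and 158 in Dox_OOA, 2 tight groups far apart (log2 change 0.77 ± 0.03, adjusted p = 1.26e-13). The cathepsin gene Ctsl rose by 0.55 ± 0.07 and the lysosomal membrane gene Lamp2 by 0.32 ± 0.04. Of 22 NRF2 targets 10 rose and 5 fell, with the glutathione transferase gene Gsta4 at 1.18 ± 0.12 and the heme oxygenase gene Hmox1 at 0.52 ± 0.07.

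Of 18 inflammatory genes 7 rose (16.2% of all genes) and none fell (1 without Dox_OA replicate 3). Ptgs2, the cyclooxygenase 2 gene, read 10.6, 9.997, 7.39 and 7.68 FPKM in Dox_OA and 20.5, 20.9, 17.3 and 16.2 in Dox_OOA. Replicates 1 and 2 were the higher pair in both groups, and the groups did not overlap (log2 change 1.00 ± 0.12, adjusted p = 1.34e-06). Il6 rose from 10.8 ± 1.88 to 21.03 ± 5.32 FPKM (log2 change 0.88 ± 0.17) and Lcn2, which encodes lipocalin 2, by 0.52 ± 0.08. The macrophage markers summed to 1.88 to 3.95 FPKM in Dox_OA and 2.64 to 3.56 in Dox_OOA, with Adgre1 at 0.

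The largest falls were those of Sprr1a and Sema7a. Sprr1a, a cornified envelope gene also known from stressed and regenerating tissue, read 10.4, 8.58, 9.63 and 9.94 FPKM in Dox_OA and 1.17, 2.80, 1.15 and 1.48 in Dox_OOA (log2 change -2.05 ± 0.17, adjusted p = 5.21e-09). Sema7a, a membrane-bound semaphorin gene, read 16.9, 15.3, 17.1 and 18.01 FPKM in Dox_OA and 3.78, 3.50, 4.52 and 4.33 in Dox_OOA (log2 change -1.83 ± 0.09, adjusted p = 2.98e-13). The groups did not overlap for either gene. Tfrc, the transferrin receptor that brings in iron, fell from 22.2 ± 0.84 to 9.13 ± 0.86 FPKM (log2 change -1.20 ± 0.06). Fosl1, an AP-1 factor gene, fell from 7.04 ± 0.53 to 2.60 ± 0.33 FPKM (log2 change -1.16 ± 0.10), and Dusp6, a phosphatase gene that ERK signalling induces, from 8.37 ± 1.12 to 4.55 ± 0.43 (-0.75 ± 0.15). Tnfrsf12a, the TWEAK receptor gene, fell by 1.18 and the uridine phosphorylase gene Upp1 by 1.04 on the log2 scale. Hmga1b fell from 41.98 ± 3.34 to 20.2 ± 2.55 FPKM and Hmga1, named after its values were seen, from 13.01 ± 1.44 to 6.14 ± 0.85. They are near-identical copies that share reads, so their separate levels are uncertain.

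Among 16 immediate-early genes 3 rose and 6 fell, against 16.2% and 17.0% of all genes. Egr1 read 52.03, 51.7, 25.4 and 23.5 FPKM in Dox_OA and 20.6, 19.7, 10.2 and 10.8 in Dox_OOA. Replicates 1 and 2 stood at about the double of replicates 3 and 4 in both groups, and within each pair of replicates Dox_OOA was lower (log2 change -1.24 ± 0.40, adjusted p = 0.0205). The water groups had the same split, at 46.3, 49.6, 22.2 and 24.03 FPKM in OA and 27.3, 29.8, 13.6 and 11.9 in OOA. The main fit held no term for the split, so it is part of the spread behind this adjusted p. Leaving out Dox_OA replicate 1 or 2 or Dox_OOA replicate 3 or 4 ended the call (log2 changes -1.06, -1.06, -1.08 and -1.10, adjusted p from 7.44e-14 to 0.0679 over 17 alternative settings). Klf4, which the same list holds, rose from 6.33 ± 0.62 to 10.8 ± 0.70 FPKM (log2 change 0.68 ± 0.08).

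In the muscle programme, 5 of 17 myotube genes fell (17.0% of all genes), 1 rose (Chrng) and 11 did not pass (median -0.16). Myh3, the embryonic myosin gene, was low throughout and read 1.33, 1.40, 1.62 and 1.71 FPKM in Dox_OA and 0.582, 0.495, 0.603 and 0.256 in Dox_OOA (log2 change -0.77 ± 0.10, adjusted p = 1.59e-06). Actc1, the cardiac actin gene of early myotubes, overlapped between groups (log2 change -0.51 ± 0.17, adjusted p = 0.0206, 0.00472 to 0.0847 over 17 alternative settings). The call was lost without Dox_OA replicate 2 (-0.40), Dox_OOA replicate 2 (-0.43) or Dox_OOA replicate 3 (-0.40), and also with no filter on low values (adjusted p = 0.0553) and with only the 8 libraries compared (adjusted p = 0.0588). Without Dox_OA replicate 2, 2 myotube genes fell, and without Dox_OOA replicate 3, 3 fell. The rise of Chrng was lost (0 higher) without Dox_OA replicate 1, 3 or 4 or Dox_OOA replicate 4. The myoblast factor gene Myf5 rose from 4.95 ± 0.63 to 8.15 ± 0.68 FPKM (log2 change 0.62 ± 0.09), and Id2, an inhibitor of myogenic factors, fell from 15.6 ± 0.88 to 10.1 ± 0.19 (-0.58 ± 0.05). Col4a1, a basement membrane collagen gene, rose by 0.36 ± 0.04 as one of 12 of 26 matrix genes that rose, with 4 lower.

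The same treatment without induced UCP1, OOA against OA, called 7337 genes (56.9%; 28.5% of all genes higher and 28.4% lower), 744 of them changed by at least 2-fold (5.77%). The 2 comparisons share no library. Of the 4283 genes called with doxycycline, 3514 (82.0%) were called in water, which are 47.9% of the calls in water, and 3299 of them moved in the same direction. Across the 12904 genes the log2 changes of the arms had a Pearson r of 0.684, a description, since genes are not independent replicates. The difference between the arms was itself tested as an interaction, which called 3834 genes (29.7%; 15.1% of all genes above 0 and 14.6% below), 232 of them with a difference of at least 2-fold (1.80%). Of the genes called in both arms in the same direction, 1511 had a called interaction, and in 1489 of these the change with doxycycline was the smaller.

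**Figure D3:**
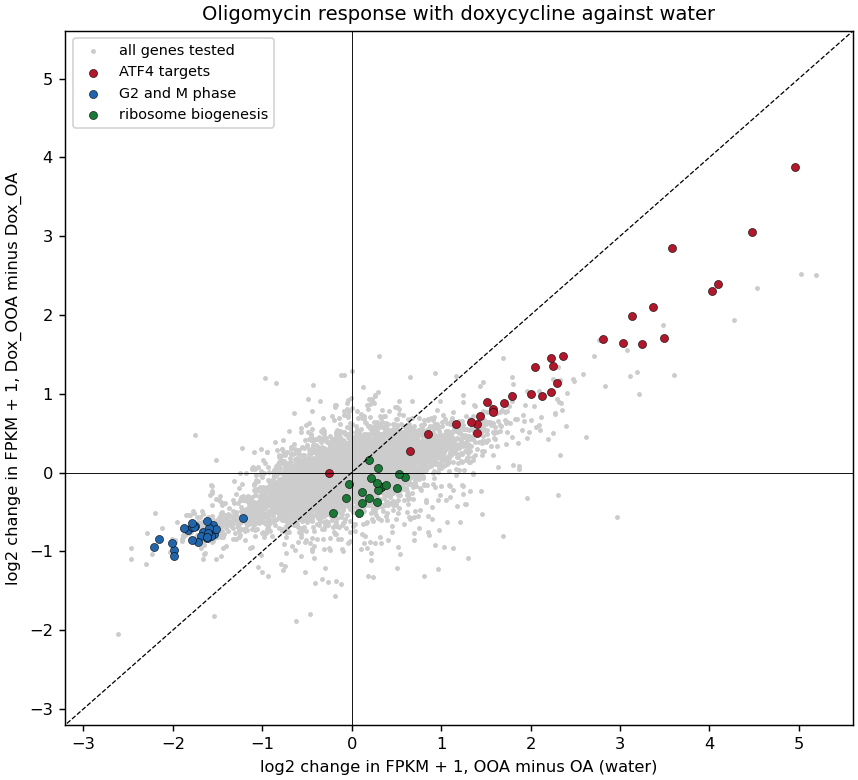
Log2 change in FPKM + 1 with oligomycin in the doxycycline arm (vertical axis) against that in the water arm (horizontal axis) for all 12904 genes, with 3 gene lists coloured and a dashed line where the changes are equal. ATF4 targets and G2 and M phase genes lie between the dashed line and 0, while most ribosome biogenesis genes lie below 0 on the vertical axis and above 0 on the horizontal.

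The stress response was smaller with doxycycline than with water for 31 of 32 ATF4 targets, each with a called interaction below 0 (14.6% of all genes). Slc38a2, which fell in water, had an interaction above 0. Doxycycline and UCP1 cannot be told apart in these differences. Trib3 differed by -1.07 ± 0.15 on the log2 scale (interaction, adjusted p = 6.52e-06), with means of 3.93 ± 0.37 FPKM in OA and 151 ± 4.97 in OOA. Ddit3 reached 100.1 ± 4.96 FPKM in OOA, and its log2 change was 1.64 with doxycycline against 3.25 with water (interaction -1.61 ± 0.10, adjusted p = 4.45e-11). The interactions of Atf4 (-0.72 ± 0.08), Atf5 (-0.62 ± 0.08), Atf3 (-1.72 ± 0.18), Chac1 (-0.74 ± 0.14) and Fgf21 (-1.42 ± 0.19) were also below 0. That of Gdf15 (-1.70 ± 0.23, adjusted p = 3.9e-06) was lost in 2 of 24 alternative settings, with a pseudocount of 0.1 (-1.52) and with limma-voom (-1.30), where its adjusted p ranged from 2.44e-07 to 0.136. Asns started lower with doxycycline, at 15.3 against 27.8 FPKM, and ended lower, at 43.6 against 134 (interaction -0.77 ± 0.07). Phgdh (-0.55 ± 0.07), Psat1 (-0.37 ± 0.06), Mthfd2 (-0.70 ± 0.09) and Aldh1l2 (-1.27 ± 0.07) had interactions of the same sign, as did Cdsn (-2.69 ± 0.13), Car6 (-2.51 ± 0.13), Avil (-2.34 ± 0.14) and Cox6a2 (-2.20 ± 0.29).

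The fall of cell cycle genes was smaller too. All 25 G2 and mitosis genes and 24 of 29 S phase genes had a called interaction above 0 (15.1% of all genes). Rrm2 ended at 74.04 ± 4.12 FPKM in Dox_OOA and at 31.9 ± 1.31 in OOA, from 121 and 142 without oligomycin (interaction 1.41 ± 0.08, adjusted p = 9.63e-12). Interactions were 1.27 ± 0.08 for Plk1, 1.00 ± 0.11 for Mki67, 0.92 ± 0.09 for Cdc20 and 0.90 ± 0.09 for Ccnb1. Myc, which more than doubled in water from 35.1 ± 0.21 to 76.9 ± 4.47 FPKM, had an interaction of -0.89 ± 0.09, and Cdkn1a one of -0.83 ± 0.09.

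Many ribosome biogenesis genes, and the chaperone gene Hspa5, went opposite ways in the arms. Of the 19 ribosome biogenesis genes, 13 fell with doxycycline and 13 rose in water with 1 lower (28.5% and 28.4% of all genes), and the interaction was called below 0 for 17 (14.6% of all genes). Nop2, which fell with doxycycline, rose in water from 27.9 ± 1.59 to 34.2 ± 2.04 FPKM (log2 change 0.28, interaction -0.66 ± 0.08, adjusted p = 9.95e-07). In water Nop56 (log2 change 0.08, adjusted p = 0.314) and Dkc1 (0.11, adjusted p = 0.129) did not pass and Nolc1 fell (-0.21), with interactions of -0.60 ± 0.10, -0.50 ± 0.09 and -0.31 ± 0.10. Hspa5 fell with doxycycline and rose in water from 238 ± 10.4 to 365 ± 11.6 FPKM, and its interaction was -0.90 ± 0.05 (adjusted p = 1.95e-11). Hyou1 had an interaction of -0.42 ± 0.05.

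**Figure D4:**
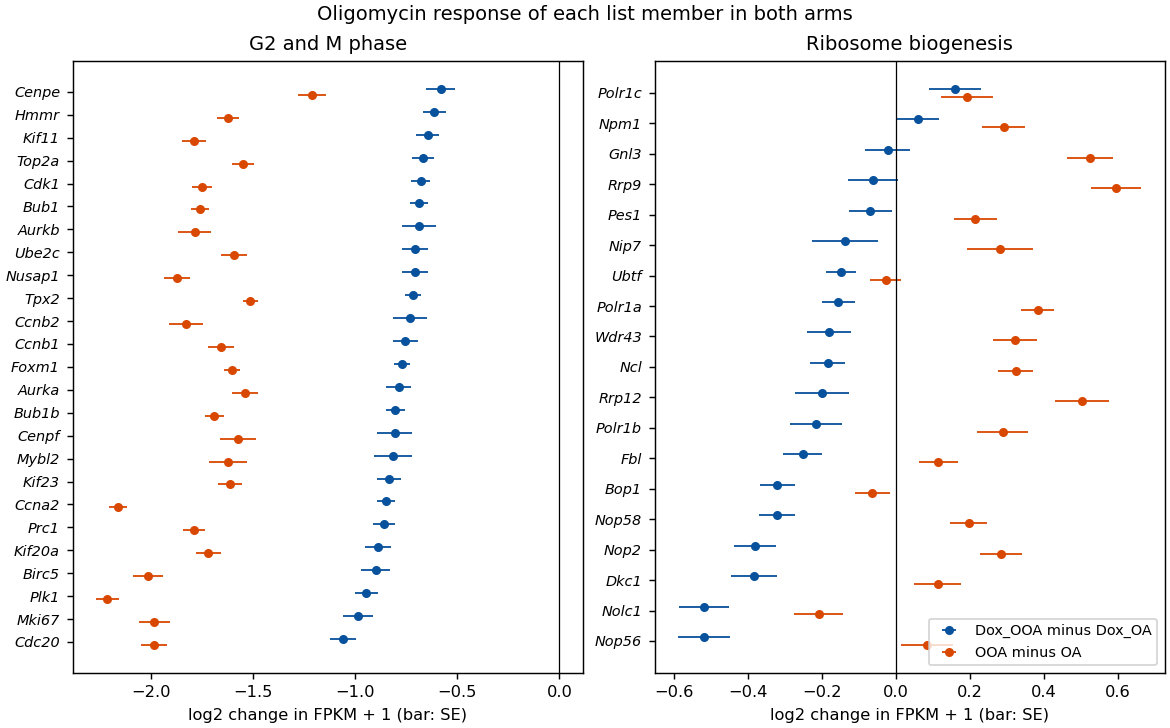
Log2 change in FPKM + 1 (horizontal axis; points with SE bars) of each G2 and M phase gene (left panel) and each ribosome biogenesis gene (right panel) in Dox_OOA minus Dox_OA and in OOA minus OA. In the left panel the doxycycline points all lie nearer 0 than the water points, and in the right panel most lie on the other side of 0, as for Nop2 at -0.38 and 0.28.

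In all, 215 of the 12904 genes were called in both arms in opposite directions. Of these, 122 were higher with doxycycline and lower in water and 93 the reverse. Each also had a called interaction, but choosing genes by opposite changes largely fixes that outcome, so it adds no support. Car3, Car2, Car13, Sfrp2, Gem, Csf2rb and Mchr1 were named for their opposite changes, so their interaction values are descriptions. Car3, the carbonic anhydrase of slow muscle, read 81.4, 75.1, 76.9 and 86.3 FPKM in Dox_OA and 107, 103, 112 and 123 in Dox_OOA, and 56.1, 55.3, 52.3 and 59.8 in OA and 20.4, 15.95, 12.04 and 16.2 in OOA. It rose with doxycycline (log2 change 0.47 ± 0.09) and fell in water (-1.75), without overlap in either arm (interaction 2.22 ± 0.13, adjusted p = 3.33e-11). The related genes Car2 and Car13 did likewise. Car13 went from 120.4 ± 4.5 to 145 ± 6.35 FPKM with doxycycline and from 106 ± 3.87 to 54.5 ± 3.48 in water (interaction 1.21 ± 0.07), and Car2 had an interaction of 1.25 ± 0.17. The rise of Car2 (log2 change 0.39 ± 0.12, adjusted p = 0.0166, 0.00233 to 0.0509 over 17 alternative settings) was lost without Dox_OOA replicate 4 (0.35).

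Sfrp2, a secreted modulator of Wnt signalling, read 435, 436, 408 and 411 FPKM in Dox_OA and 499, 499, 505 and 526 in Dox_OOA, a small rise without overlap (log2 change 0.26 ± 0.05). In water it fell from 455 ± 31.6 to 235 ± 14.9 FPKM (interaction 1.21 ± 0.07, adjusted p = 1.95e-11). Gem, which encodes a small GTPase that limits calcium channels, rose from 12.8 ± 0.98 to 20.6 ± 2.85 FPKM with doxycycline and had an interaction of 1.11 ± 0.16. Csf2rb, the shared receptor chain of GM-CSF and IL-3, Mchr1, a melanin-concentrating hormone receptor, and Postn, which encodes the matrix protein periostin, had interactions of 1.22 ± 0.10, 1.32 ± 0.13 and 0.70 ± 0.06. Among genes named above, Cpt1a (interaction 0.50 ± 0.05), Acadm (0.64 ± 0.06) and Hmgcs1 (0.49 ± 0.07) rose with doxycycline and fell in water. Ucp2, a carrier related to UCP1, rose from 16.997 ± 1.18 to 21.4 ± 0.91 FPKM with doxycycline and fell from 14.03 ± 1.07 to 10.96 ± 0.33 in water (interaction 0.64 ± 0.09).

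**Figure D5:**
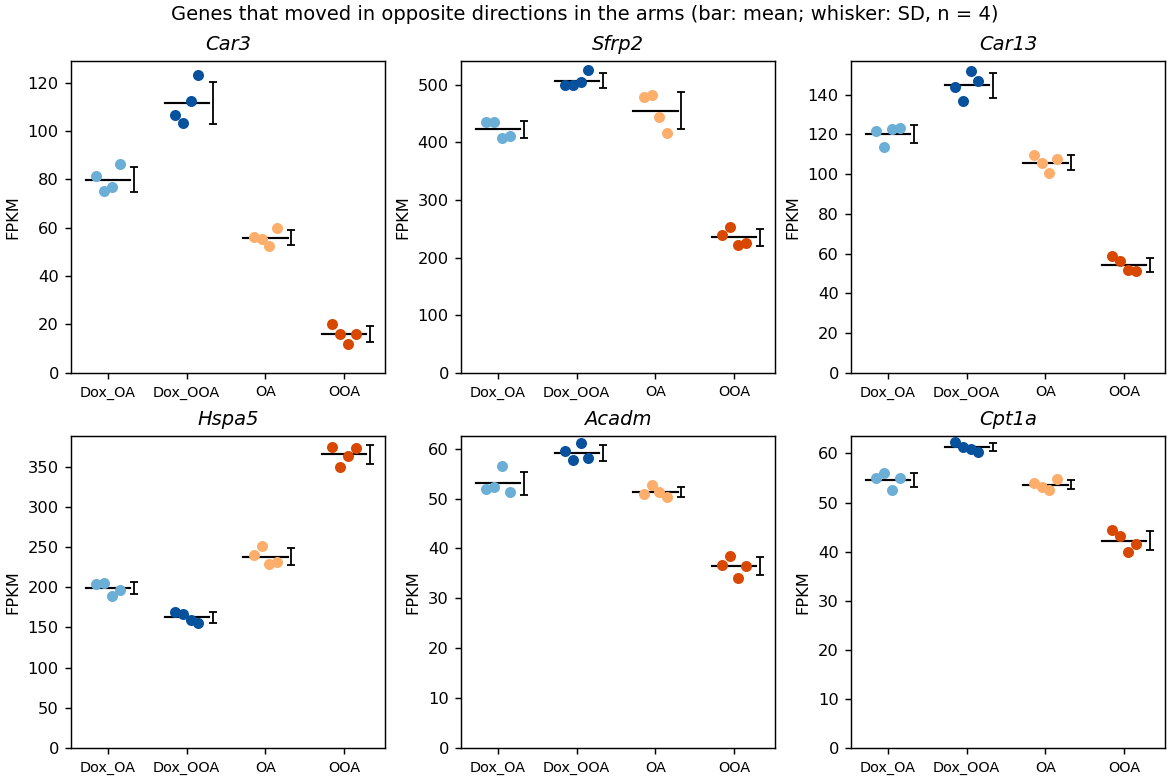
FPKM (linear axis from 0) of 6 genes in each of the 4 libraries of Dox_OA, Dox_OOA, OA and OOA, with a bar at the mean and a whisker for the SD. Car3, Sfrp2, Car13, Acadm and Cpt1a are higher in Dox_OOA than in Dox_OA and lower in OOA than in OA, and Hspa5 is the reverse.

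Myod1, the myogenic factor gene, read 44.4, 49.6, 43.3 and 44.3 FPKM in Dox_OA and 48.3, 53.6, 47.6 and 53.7 in Dox_OOA. These libraries overlapped, and the rise (log2 change 0.16 ± 0.05, adjusted p = 0.0271, 0.00748 to 0.0928 over 17 alternative settings) did not pass in 7 settings, among them those without Dox_OA replicate 1 (0.15), 3 (0.14) or 4 (0.15) and Dox_OOA replicate 2 (0.13) or 4 (0.13). In water Myod1 fell from 38.6 ± 2.58 to 25.5 ± 0.92 FPKM, and the interaction was 0.74 ± 0.08 (adjusted p = 1.03e-07). All 17 myotube genes fell in water (28.4% of all genes), with a median of -0.87, and 16 had a called interaction above 0 (15.1% of all genes), among them Myh3 (1.05 ± 0.14).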

How the data were processed

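RNA was sequenced from 24 libraries in 6 groups of 4. The authors deposited one table of FPKM values for 56748 mouse genes with GRCm39 coordinates. Per the submitters' processing notes the tools were HTSeq, STAR-Fusion, edgeR, DESeq2, HISAT2 and STAR, with the builds GRCm39 and mm39. Their versions and roles, and strand use in counting, are not given, so overlapping genes may share reads, and reads of the vector cannot be told from those of the mouse Ucp1 gene. Each deposited FPKM multiplied by gene length and depth gave whole reads within 0.01 for 100% of values, with 20370651 to 29410667 reads per library.

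Values were analysed as log2(FPKM + 1) for the 12904 genes that reached an FPKM of 1 in 4 or more libraries. One limma 3.58.1 model (R 4.3.3) estimated 6 group means from all 24 libraries, with 18 residual degrees of freedom, moderated variances with trend and robust settings, and Benjamini-Hochberg adjustment over all genes at a threshold of 0.05. Contrasts were Dox_OOA against Dox_OA, OOA against OA, and the difference of these (interaction). The procedure was tested on simulated data. Ucp1 was tested by exact permutation.

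The genes compared and the gene lists were chosen with earlier results of these data known. Genes were named by rule: key genes of the stress response, the 12 protein-coding genes per direction with the largest called change and no overlap, the 8 per direction with the largest interaction, the 8 with the largest opposite changes, and up to 6 members per list with the smallest p. The text names 6 genes outside it after their values were seen (Oma1, Dele1, Shmt1, Ncl, Hmga1 and Acat2), besides list members given only to resolve a count. A few list members are counted but not reported here by name. Alternatives were a pseudocount of 0.1, other filters and scalings, a replicate block, limma-voom on the recovered reads, only the 8 libraries, and leaving out each library. Promoters are RefSeq sequences on GRCm38.p6, used apart from the GRCm39 coordinates.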

Additional observations from a re-analysis of the deposited data

Results flagged for a closer look

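In 7 of 228 groups of 4 libraries tested among the named genes, 1 library stood far from the other 3. Most of these genes were chosen by their results and all share the same 8 libraries. The count therefore cannot be set against a chance rate. Dox_OA replicate 2 was high for Atf3 (1.02 FPKM) and low for Car13 (113.7 FPKM), Dox_OA replicate 1 was high for Id2 (16.9 FPKM) and Dox_OA replicate 4 was low for Atp5g3 (73.2 FPKM). Dox_OOA replicate 4 was high for Asns (46.5 FPKM) and low for mt-Co1 (4689 FPKM), and Dox_OOA replicate 1 was high for Herpud1 (89.3 FPKM).

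The change with oligomycin differed between the arms by the limma interaction test for 3834 genes. The values below are the log2 change with doxycycline minus that with water, and doxycycline and UCP1 cannot be told apart in them. For stress response genes they were -1.07 for Trib3, -1.42 for Fgf21, -0.74 for Chac1, -1.70 for Gdf15, -1.72 for Atf3, -1.61 for Ddit3, -0.72 for Atf4, -0.62 for Atf5 and -0.77 for Asns. For amino acid and folate enzymes they were -1.27 for Aldh1l2, -0.70 for Mthfd2, -0.37 for Psat1 and -0.55 for Phgdh. Among other large rises they were -2.51 for Car6, -2.69 for Cdsn, -2.20 for Cox6a2 and -2.34 for Avil. For genes of the cell cycle and its control they were 0.92 for Cdc20, 1.00 for Mki67, 1.27 for Plk1, 0.90 for Ccnb1, 1.41 for Rrm2, -0.89 for Myc and -0.83 for Cdkn1a. For ribosome biogenesis and chaperones they were -0.60 for Nop56, -0.31 for Nolc1, -0.50 for Dkc1, -0.66 for Nop2, -0.90 for Hspa5 and -0.42 for Hyou1. For metabolism they were 0.64 for Ucp2, 0.50 for Cpt1a, 0.64 for Acadm and 0.49 for Hmgcs1. For muscle and other genes they were 0.74 for Myod1, 1.05 for Myh3, 2.22 for Car3, 1.25 for Car2, 1.22 for Csf2rb, 1.32 for Mchr1, 1.11 for Gem, 1.21 for Sfrp2, 1.21 for Car13 and 0.70 for Postn.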

How the results depend on the processing

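With doxycycline the number of genes called stayed within 1.5 times of 4283 in each alternative run, from 3638 with an FPKM of at least 5 to 4560 with a replicate block, and lay between 3797 and 3932 when each library was left out in turn. A term for replicates 1 and 2 against 3 and 4, chosen after seeing the data, gave 4555 calls, limma-voom 4494 and the 8 libraries alone 3809. Among 114 named genes, calls were lost for 5 (Actc1, Car2, Egr1, Myc and Myod1) in 18 of their values, and Dele1 passed in 6. The change of Oma1, -0.00 and far from the threshold, turned positive with median-ratio scaling (0.0051) and ranged from -0.0555 to 0.0466 on leaving out a library; the cause was not tested. The 44 reported interactions kept their call except that of Gdf15.

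The replicate numbers did not clearly pair the libraries, since deviations of same-numbered libraries of the groups correlated at only 0.076, 0.038, -0.013 and -0.020. Dox_OA replicates 1 and 2 correlated best with their own number in Dox_OOA, and replicates 3 and 4 with each other's number. Egr1 split between replicates 1 and 2 and replicates 3 and 4 in Dox_OA, Dox_OOA, OA and OOA. Whether replicates 1 and 2 form a set apart across genes is not given in the labels and was not tested. With the replicate block the interaction had 4105 calls against 3834, and Dox_OOA against Dox_OA had 4560 against 4283.

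FPKM values below about 1 rest on few reads, and 4 libraries per group limit the detection of small changes.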
